A study of Ceratotherium simum simum with 6 samples.

Results

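The genes described here are the core of the Hippo pathway: the kinases STK3, STK4, LATS1 and LATS2, the scaffold SAV1, the coactivators YAP1 and WWTR1 (also called TAZ), the DNA-binding factor TEAD1, the TEAD cofactor VGLL4 and the angiomotin AMOTL2, which the deposited annotation writes AMOL2. They were taken from that annotation by name alone, from a list drawn up with earlier results of these data known. Of the 10 names, 9 were found, each on 1 of 25906 loci. The name STK4 was not found, so this kinase is not analysed here. Of the 9 genes, 7 passed the filter on low counts and were tested, while WWTR1 and TEAD1 did not pass it.

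The libraries were made from total RNA of granulosa cells, which nurse the oocyte inside the follicle of the ovary and produce oestradiol. The cells came from a pair of southern white rhinoceroses, Ceratotherium simum simum, and each animal gave 3 libraries. Both groups, rhino 1 and rhino 2, are labelled wild type, in vivo and pre IVM, that is, before in vitro maturation of the oocyte, and no label sets a treatment or an age apart between them. Each group is 1 animal, and the labels do not say whether its libraries came from separate follicles or collections, so every p-value here measures the spread between libraries, which may be technical. The comparison asks how far the animals differed. In such bulk samples, fewer cells of a type and less RNA per cell cannot be told apart.

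In the Hippo cascade of mammals, STK3 and STK4 (MST2 and MST1), held by the scaffold SAV1, phosphorylate and activate LATS1 and LATS2. The LATS kinases in turn phosphorylate YAP1 and TAZ, which are then kept in the cytoplasm or degraded. Unphosphorylated YAP1 and TAZ enter the nucleus and act through TEAD factors on genes of proliferation and survival, and in the mouse and human ovary the pathway is known for its part in granulosa cell proliferation and follicle growth.

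The libraries differed in depth and in strand. Totals ran from 672410 counts in rhino 1 replicate 2 to 13288936 in rhino 1 replicate 1, the deepest by 19.8 times, and the other 4 libraries held 703708 to 1523904. In rhino 1 replicate 1, 94.5% of the counts lay on named genes, against 2.31% to 2.61% in the other 5 libraries, whose counts lay on unnamed models of the opposite strand. The 9 genes showed the same split, in that rhino 1 replicate 1 had 99.5% of their counts on the named strand and the remaining 5 libraries had 0%, and the strands of each locus were therefore summed. Counts were scaled to a library total of 1e+06 (CPM). In that unit the 9 genes together took 867 to 1071 CPM per library. All 12 granulosa markers on the list had counts in every library. The 8 oocyte markers, the theca marker CYP17A1 and 5 of the 6 immune markers found are modelled on the named strand only, so a 0 in the 5 libraries on the opposite strand says nothing of their RNA. In rhino 1 replicate 1, which could show them, GDF9 was the oocyte marker with counts, at 3.91 CPM, summed immune markers reached 65.7 CPM, and CYP17A1 had no counts.

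The level of each gene was set per length, as CPM per kilobase of the exonic model on the strand that held the counts. YAP1 was the most abundant of the 9, at 90.4 ± 10.3 CPM per kilobase (mean and SD of 6 libraries), and it stood at rank 745 of the 10525 named loci that had a model on both strands. AMOL2 came next at 49.5 ± 9.20 and rank 1502. SAV1 had 30.05 ± 8.81, STK3 17.8 ± 5.64 and VGLL4 16.3 ± 3.94 CPM per kilobase. The LATS kinases lay close together, LATS1 at 10.3 ± 1.48 and LATS2 at 9.89 ± 2.00 CPM per kilobase, at ranks 5774 and 5895. TEAD1 and WWTR1 were lowest, at ranks 7798 and 8719, and each had libraries with no counts.

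The top of this order was clear of the spread between libraries. YAP1 was above AMOL2, and AMOL2 above SAV1, in 6 of 6 libraries, with no overlap of their ranges of CPM per kilobase, and the same held for VGLL4 above LATS1. The ranges of SAV1 and STK3 overlapped, although SAV1 was higher in 5 of 6 libraries. STK3 exceeded VGLL4 in 3 of 6 and LATS1 exceeded LATS2 in 4 of 6, so these neighbours were not separated. TEAD1 was below LATS2 in 5 of 6 libraries, with overlapping ranges, and TEAD1 and WWTR1 were not separated. With the length of the longest transcript in place of the exonic model, LATS2 moved above VGLL4.

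**Figure D1:**
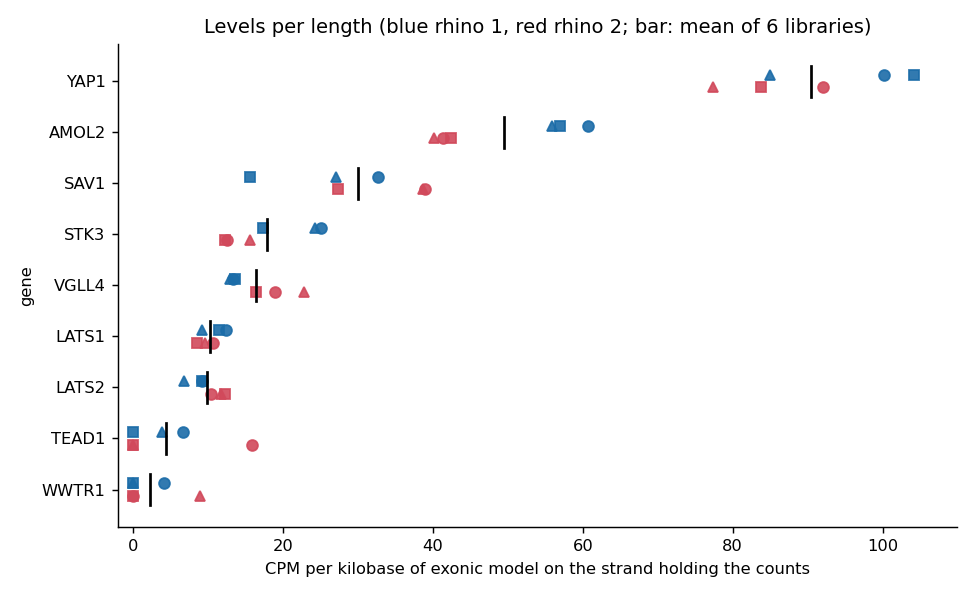
Level of each of the 9 genes (rows) in CPM per kilobase of exonic model (horizontal axis), with 1 point per library, blue for rhino 1 and red for rhino 2, circle, square and triangle for replicates 1, 2 and 3, and a black bar at the mean of the 6 libraries. YAP1 lies between 77.4 and 104.2 in all libraries, clear of AMOL2 at 40.2 to 60.6, while the points of LATS1 and LATS2 interleave.

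The length correction bears on the comparison of the animals, because the models of the strands differ in length. For 6 of the 9 genes the annotated model is a multiple of 3 bases long, as a coding sequence is, and whether it holds untranslated sequence was not checked. VGLL4 is modelled by 891 bases on the named strand and 3737 on the opposite strand, SAV1 by 1155 and 2394 bases, and STK3 by 1476 and 2673 bases. YAP1 has 5751 and 4767 bases, LATS1 7123 and 6884, LATS2 4187 and 5331, and AMOL2 4286 and 4363. The paired models were the same genes by their splice sites: for LATS1, LATS2, STK3, SAV1 and VGLL4 every intron of the opposite-strand model had identical ends on the named strand, as did 12 of 13 in YAP1, 10 of 12 in TEAD1, 10 of 11 in AMOL2 and 2 of 3 in WWTR1.

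Within rhino 1, the CPM of the library on the named strand was lower than the mean of the other 2 for VGLL4, STK3 and SAV1, the genes whose named model is much the shorter. The log2 ratio of VGLL4 CPM in replicate 1 over the mean of replicates 2 and 3 was -1.77, where the log2 ratio of its model lengths was -2.07. For STK3 the CPM ratio was -0.58 and the length ratio -0.86, and for SAV1 they were -0.43 and -1.05. AMOL2 and LATS1, whose models are nearly equal in length, had CPM ratios of 0.08 and 0.31 beside length ratios of -0.03 and 0.05. Per kilobase, the log2 ratio of replicate 1 over the other libraries was 0.01 for VGLL4 and 0.27 for STK3, nearer to 0 than by CPM, but 0.62 for SAV1, farther from 0 and of the opposite sign. Across 6020 loci with counts in all 3 libraries of rhino 1, the length ratio and the CPM ratio had a Pearson r of 0.63 and a Spearman rho of 0.65, as a description across loci that share the same libraries. With CPM per kilobase in place of CPM, r was -0.21. Values per kilobase are therefore given beside CPM, and for SAV1 neither scale brings the libraries of rhino 1 together.

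**Figure D2:**
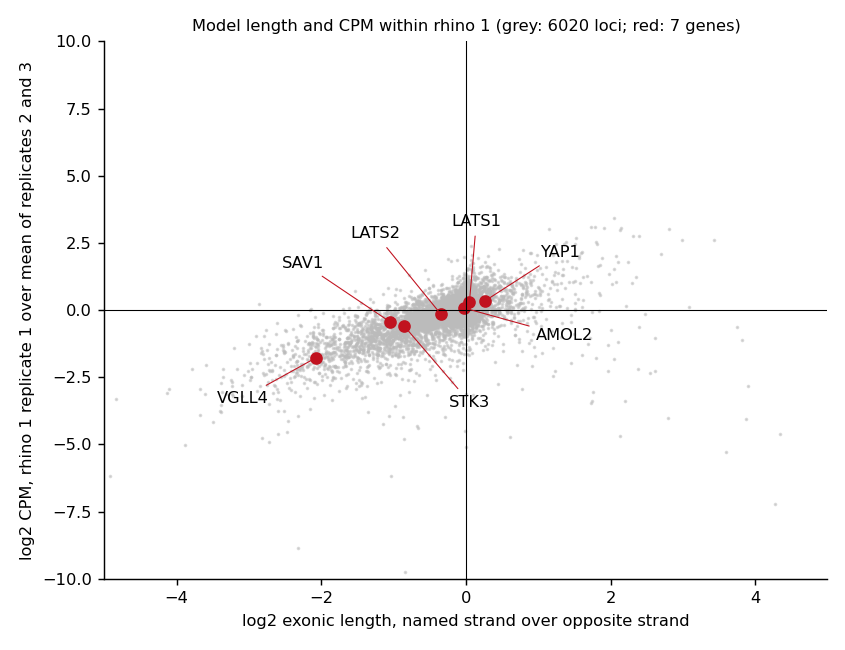
Each grey point is 1 of 6020 loci, with the log2 ratio of exonic length (named over opposite strand) on the horizontal axis and the log2 ratio of CPM (rhino 1 replicate 1 over the mean of replicates 2 and 3) on the vertical axis, and red points are the 7 tested genes. VGLL4 sits farthest to the lower left of the 7, at -2.07 and -1.77, and AMOL2, LATS1 and YAP1 lie near the origin.

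None of the 7 tested genes passed the threshold between the animals in edgeR's quasi-likelihood test (Benjamini-Hochberg adjusted p under 0.05 over 8532 loci). Of all loci tested, 0.551% passed, which is 47 loci. At an unadjusted p under 0.05 there was 1 of the 7, SAV1, against 12.9% of all loci. DESeq2 passed 0 of the 7, where 10.4% of loci passed, and limma-voom passed 1, VGLL4, where 8.93% passed. At an unadjusted p under 0.05 DESeq2 had 3 of the 7, beside 1333 of 6044 loci. The CPM of the animals did not overlap for 4 of the 7, where 24.4% of all loci did not overlap. Of these 4, LATS2, SAV1 and VGLL4 were higher in rhino 2, as were 10.4% of all loci, and AMOL2 was higher in rhino 1, as were 14.0%. With model length as an offset, edgeR passed 0 of the 7, none of them at an unadjusted p under 0.05, where 2.27% of loci passed. By CPM per kilobase the groups of 4 of the 7 also stood apart, against 27.1% of loci, but STK3, higher in rhino 1, took the place of SAV1. With so few genes these counts describe the 7 and do not set them apart from other loci.

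Some markers of granulosa and other cells moved between the same libraries. Of the 12 granulosa markers edgeR passed 1, AMH (anti-Müllerian hormone), at 83.7 ± 6.32 CPM in rhino 1 and 349 ± 74.4 in rhino 2 (SD, 3 libraries each; edgeR adjusted p = 0.0192). Of all loci, edgeR passed 0.551%. DESeq2 and limma-voom each passed 4 of the 12, where 10.4% and 8.93% of all loci passed. The animals did not overlap for 4 of the 12, against 24.4% of all loci. CYP19A1, the aromatase that makes oestradiol, had 2413 ± 1339.6 and 225.8 ± 40.8 CPM (adjusted p = 0.0536), and the inhibin subunit INHBA had 579 ± 215 and 186 ± 24.7 CPM (adjusted p = 0.0952). LHCGR, the LH receptor, had 132 ± 66.4 and 27.2 ± 9.37 CPM (adjusted p = 0.123). The smooth muscle gene MYH11 had 188 ± 73.3 and 721 ± 187 CPM (adjusted p = 0.0737), and the endothelial receptor gene TEK had 78.6 ± 21.2 and 206 ± 47.2 CPM (adjusted p = 0.0892), while the smooth muscle gene CNN1 was higher in rhino 1, at 101 ± 41.0 against 18.5 ± 5.09 CPM (adjusted p = 0.0581). None of these 7 genes overlapped between the animals. TEK was the 1 endothelial marker of 7 that passed the filter on low counts, and 3 of the 7 had no counts in any library. In rhino 1 replicate 1, on the named strand, TEK had 99.6 CPM, EMCN 6.85 and VWF 3.76. TEK alone is thus no measure of endothelial cells. The part of these marker differences in the values of the Hippo genes and their targets was not tested.

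**Figure D3:**
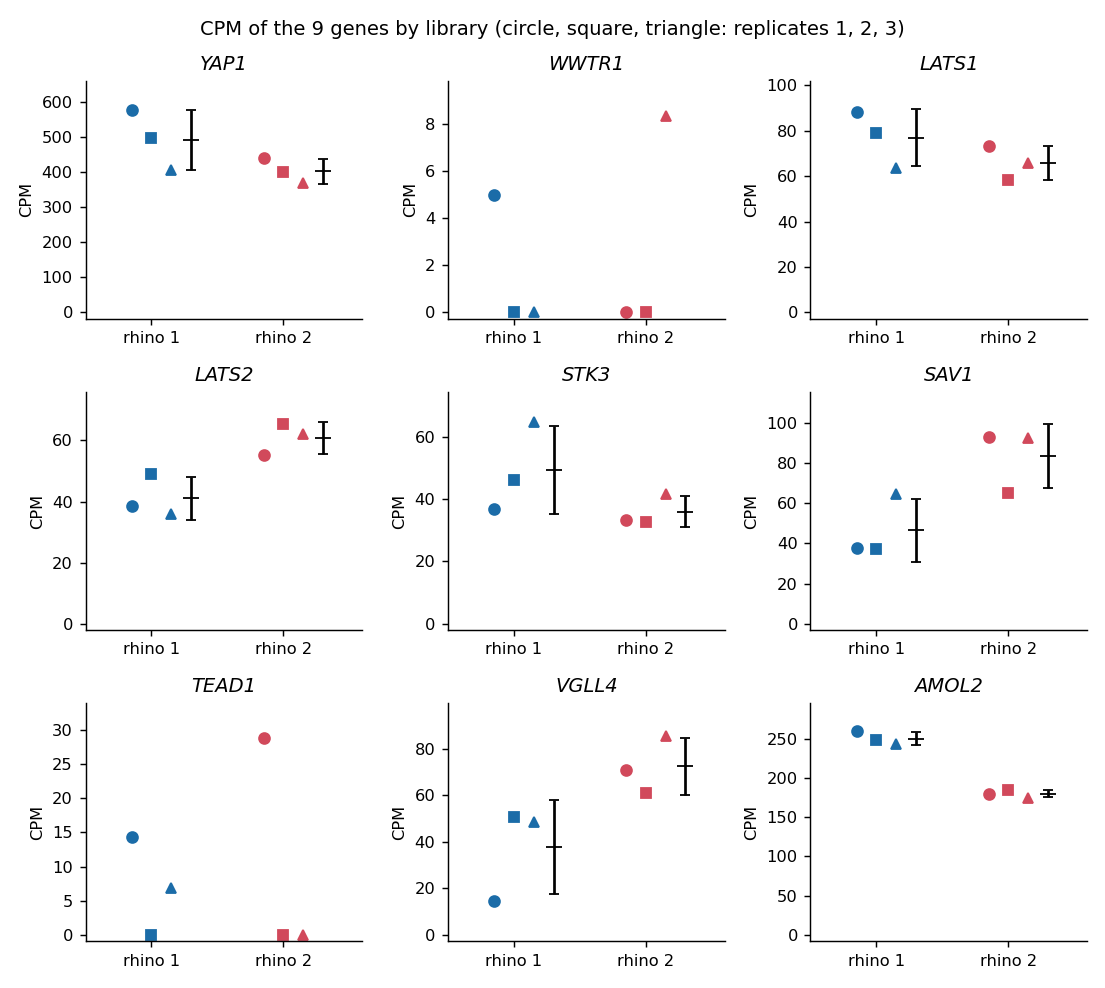
CPM of each of the 9 genes in each library (vertical axes), with rhino 1 in blue and rhino 2 in red, circle, square and triangle for replicates 1, 2 and 3, and black bars for the mean and SD of the 3 libraries where none was at 0. The animals do not overlap for LATS2, SAV1, VGLL4 and AMOL2, and WWTR1 and TEAD1 are at 0 in 4 and 3 of the 6 libraries.

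STK3 (MST2), the upstream kinase, lies on scaffold 23 at 10119257 to 10407894, minus strand, and its annotated model has 11 exons. Its CPM was 37.0, 46.1 and 64.9 in replicates 1, 2 and 3 of rhino 1 and 33.5, 32.7 and 41.7 in rhino 2. The animals overlapped, with replicate 3 the highest library in each. Per kilobase the values were 25.1, 17.2 and 24.3 in rhino 1 and 12.5, 12.2 and 15.6 in rhino 2, so that every library of rhino 1 lay above those of rhino 2. The log2 fold change of rhino 2 over rhino 1 was -0.35 (SE 0.37, edgeR adjusted p = 0.873), and -0.62 with model length as an offset (adjusted p = 0.468). Over all alternatives it ran from -0.62 to -0.09, with adjusted p between 0.468 and 0.999.

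SAV1 (Salvador), the scaffold that binds the MST kinases, lies on scaffold 3 at 1488576 to 1511522, plus strand, with 5 annotated exons. Its CPM was 37.8, 37.2 and 64.9 in rhino 1 and 93.2, 65.4 and 92.7 in rhino 2. The lowest library of rhino 2 was only just above the highest of rhino 1. Rhino 1 averaged 46.6 ± 15.8 CPM and rhino 2 83.8 ± 15.9 (SD, n = 3 each), a log2 fold change of 0.94 (SE 0.34, adjusted p = 0.297 by edgeR). Per kilobase it was 32.7, 15.5 and 27.1 in rhino 1 and 38.9, 27.3 and 38.7 in rhino 2, and the animals overlapped. With the length offset the log2 fold change was 0.56 (adjusted p = 0.558), less than the fit without the offset gave by more than 1 SE. Over all alternatives the range was 0.56 to 1.26, with adjusted p from 0.0595 to 0.731.

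LATS1, which phosphorylates YAP1 and TAZ, lies on scaffold 38 at 156919 to 199026, plus strand. Its CPM was 88.3, 78.8 and 63.5 in rhino 1 and 73.5, 58.3 and 65.8 in rhino 2, and the animals overlapped. The log2 fold change was -0.13 (SE 0.26, edgeR adjusted p = 0.953), and it was 0.028 without rhino 1 replicate 1. The deposited annotation also gives the name DCAF1, a substrate receptor of a ubiquitin ligase, to a 2-exon piece of 441 bases at the start of this gene, 156919 to 168236. That piece took 2 counts in rhino 1 replicate 1, where the full 8-exon model of 7123 bases took 1172. The opposite-strand model, also of 8 exons, carried the 53, 92, 41 and 71 counts of rhino 1 replicates 2 and 3 and rhino 2 replicates 2 and 3. In RefSeq (assembly ASM5780239v1), DCAF1 is on another chromosome than LATS1, and the counts here belong to the LATS1 model.

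LATS2, the paralog of LATS1 and itself a YAP target gene, lies on scaffold 10 at 80532186 to 80638231, plus strand, with 7 annotated exons. Its CPM was 38.4, 49.1 and 35.9 in rhino 1 and 55.1, 65.4 and 62.1 in rhino 2, so every library of rhino 2 was above those of rhino 1. The means were 41.1 ± 7.01 and 60.9 ± 5.24 CPM, a log2 fold change of 0.67 (SE 0.29, adjusted p = 0.400 by edgeR). Per kilobase the animals were also apart, at 9.17, 9.21 and 6.73 in rhino 1 and 10.3, 12.3 and 11.7 in rhino 2. With the length offset the log2 fold change was 0.56 (adjusted p = 0.437). Over all alternatives it ran from 0.56 to 0.78, with adjusted p from 0.117 to 0.800.

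The balance of the LATS kinases was read within each library, where the scaling to the library total cancels. The ratio of LATS1 to LATS2 in CPM per kilobase was 1.35, 1.24 and 1.37 in rhino 1 and 1.03, 0.690 and 0.821 in rhino 2. On this scale LATS1 was the more abundant kinase in each library of rhino 1. LATS2 was the more abundant in 2 of the 3 of rhino 2. The order within a library depends on the lengths used, and in rhino 1 replicate 2 it rested on 53 and 33 counts. On the log2 scale, with the named model's length and 0.5 added to each count, the ratio was 0.13 ± 0.27 in rhino 1 and -0.66 ± 0.29 in rhino 2, a difference of -0.79. The exact permutation test (two-sided, 20 arrangements) gave p = 0.1, the smallest that 3 libraries against 3 can give. With the exonic length of the strand holding the counts the difference was -0.655, with the same p in that test.

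AMOTL2 (AMOL2 in the files), an angiomotin that binds YAP1 at cell junctions and is also a YAP target, lies on scaffold 5 at 39780264 to 39798248, plus strand. Its CPM was 259.8, 248 and 243.5 in rhino 1 and 180.5, 185 and 175 in rhino 2. The libraries of each animal were close together and the animals stood apart, the narrowest spread relative to the mean among the 7 tested genes. The means were 250.6 ± 8.37 and 180.1 ± 4.75 CPM, with a log2 fold change of -0.38 (SE 0.17, adjusted p = 0.423 by edgeR). DESeq2 gave an adjusted p of 0.0867, the lowest over the alternatives, which reached 0.822 with log2 fold changes of -0.42 to -0.32. Per kilobase the values were 60.6, 56.9 and 55.8 in rhino 1 and 41.4, 42.3 and 40.2 in rhino 2, the same direction with models of nearly equal length.

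YAP1, the pathway's coactivator, lies on scaffold 7 at 31658454 to 31769963, minus strand. It had the most counts of the 9 genes, 7657, 334 and 587 in rhino 1 and 669, 281 and 398 in rhino 2. Its CPM was 576, 497 and 405 in rhino 1 and 439, 399 and 369 in rhino 2, and the animals overlapped. The means were 493 ± 85.7 and 402.5 ± 35.1 CPM, a log2 fold change of -0.20 (SE 0.20, edgeR adjusted p = 0.870). Without rhino 1 replicate 1, the highest library, it was -0.03 (adjusted p = 0.974). Per kilobase YAP1 read 100.2, 104.2 and 85.0 in rhino 1 and 92.1, 83.8 and 77.4 in rhino 2.

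The transcript models of YAP1 differ in whether they hold exons 4 and 6. They also differ in length at exon 4 (114, 120 or 156 bases) and exon 5 (182 or 194 bases), which the shares given here leave aside. The annotated model has 9 exons, of which exon 4 has 114 bases (31697118 to 31697231) and exon 6 has 48 bases (31679076 to 31679123). In human YAP1 the exon at this position encodes the second of the WW domains, the modules that bind PPxY motifs of LATS kinases and angiomotins, and the short exon lies in the leucine zipper region. Counts per transcript were deposited for 5 of the 6 libraries, and rhino 2 replicate 1, deposited per gene, is not resolved.

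Exon 4 was in the model that held most YAP1 counts in each of the 5 libraries. On the opposite strand, where 4 of them have their counts, every model that spans exons 1 to 9 contains exon 4, so a share near 100% there was fixed by the models and is no measure of skipping. Models with exon 4 took 83.8% of 7657 counts in rhino 1 replicate 1 (95% Wilson interval 82.9 to 84.6), 100% of 334 in replicate 2 and 98.3% of 587 in replicate 3 (96.9 to 99.1). In rhino 2 they took 100% of 281 counts in replicate 2 and 100% of 398 in replicate 3. The form with exon 4 and without exon 6 was the main one in all 5, at 56.9% (55.8 to 58.0), 100% and 78.0% (74.5 to 81.2) in rhino 1 and at 100% and 91.2% (88.0 to 93.6) in rhino 2.

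Models with exon 6 took fewer counts. Models with both exons took 26.9% of counts in rhino 1 replicate 1 (25.9 to 27.9), 20.3% in rhino 1 replicate 3 (17.2 to 23.7) and 8.79% in rhino 2 replicate 3 (6.39 to 11.98). They took none in the 2 shallowest libraries, 0 of 334 and 0 of 281 counts, with upper Wilson limits of 1.14% and 1.35%. These limits hold for the share of counts placed on such models. They set no limit on the use of exon 6, which is 48 bases of an opposite-strand model of 4175. A model that skips both exons, found on the named strand alone, held 1242 counts, 16.2% (15.4 to 17.1), in rhino 1 replicate 1, and the other libraries had no such full-length model to place counts on. In rhino 1 replicate 3 the 10 counts without exon 4 (1.70%, 0.928 to 3.11) lay on a partial model of 4 exons and 688 bases. Intervals and limits here cover counting error only.

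Depth and the models of each strand both moved with these shares, and their part was not tested. AMOL2 gives a case of how whole libraries fell on 1 model. Its opposite-strand models of 4253 and 4256 bases both have 10 exons. All 353 counts of rhino 1 replicate 3 stood on the shorter one, while all 167, 130 and 189 counts of rhino 1 replicate 2 and rhino 2 replicates 2 and 3 stood on the longer one. A share of 100% on 1 YAP1 model is thus a statement on how counts were assigned as well as on RNA.

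**Figure D4:**
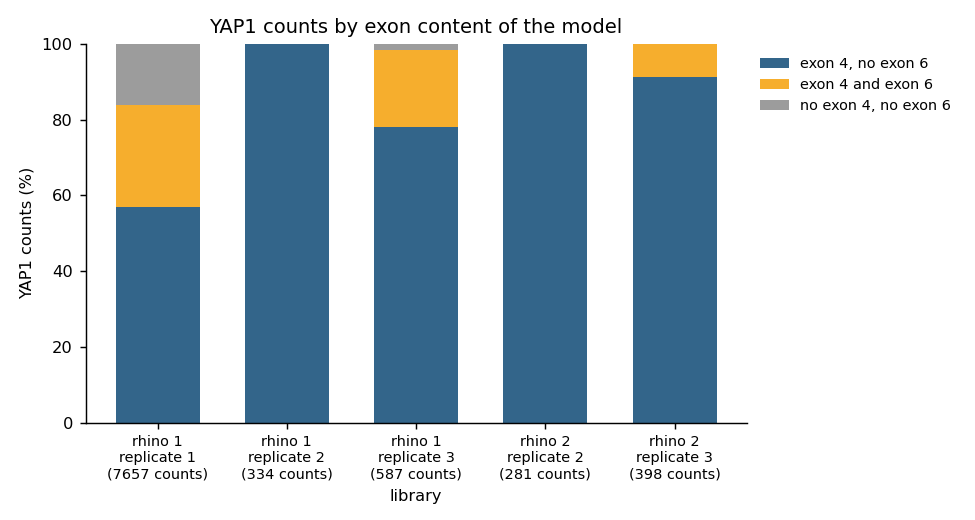
Percent of YAP1 counts (vertical axis) on models with exon 4 but not exon 6, with both, and with neither, in the 5 libraries with counts per transcript (horizontal axis, with total YAP1 counts). The form with exon 4 alone holds 56.9% to 100% of the counts, and the form with neither exon holds 16.2% in rhino 1 replicate 1, the library on the strand where a full-length model of that form exists.

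WWTR1 (TAZ), the paralog of YAP1, lies on scaffold 5 at 27011182 to 27131810, plus strand, with 6 annotated exons. It had 66 counts in rhino 1 replicate 1, which is 4.97 CPM (3.90 to 6.32), and 9 counts in rhino 2 replicate 3, which is 8.35 CPM (4.39 to 15.9). In the other 4 libraries it had 0 counts. In rhino 1 replicates 2 and 3 that allows up to 4.46 and 2.07 CPM, taking 3 counts as the limit in each library. For rhino 2 no limit is given, because another opposite-strand model over WWTR1, too short in overlap to be joined, had 16, 4 and 5 counts in replicates 1, 2 and 3 (10.5, 5.68 and 4.64 CPM), and both of its introns are introns of WWTR1. These counts are not in the WWTR1 values, and the animals are not compared for this gene.

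YAP1 exceeded WWTR1 in each library. Per kilobase YAP1 was 24.3 times WWTR1 in rhino 1 replicate 1, and with WWTR1 at 0 it was at least 21.8-fold and 38.3-fold higher in rhino 1 replicates 2 and 3. In rhino 2 the ratio depends on whether the unjoined model is counted. The log2 ratio differed between the animals by -0.51 without it (exact permutation test, two-sided, p = 0.7) and by -3.45 with strands joined at any overlap, which takes it in (p = 0.1, the smallest possible). The first of these also changed sign when single libraries were left out, and the 0.5 counts added to WWTR1 at 0 set it in part.

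TEAD1, which binds DNA for YAP1 and TAZ, lies on scaffold 7 at 69626597 to 69791653, plus strand, with 12 annotated exons. It had 14.3 CPM (12.4 to 16.5), 0 and 6.90 CPM (3.75 to 12.7) in rhino 1 and 28.9 CPM (21.5 to 38.8), 0 and 0 in rhino 2. The 44 counts of rhino 2 replicate 1 made it the highest library, while the other libraries of that animal allow at most 4.26 and 2.78 CPM. The libraries of rhino 2 differed by more than counting error, and no fold between the animals is given.

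VGLL4, which competes with YAP1 for TEAD factors, lies on scaffold 5 at 8398173 to 8479348, minus strand, with 5 annotated exons. Its CPM was 14.5, 50.6 and 48.3 in rhino 1 and 70.9, 61.1 and 85.3 in rhino 2. The library of rhino 1 on the named strand was the lowest, and without overlap every library of rhino 2 was higher than those of rhino 1. Per kilobase rhino 1 read 13.3, 13.5 and 12.9 and rhino 2 read 18.96, 16.4 and 22.8, which left the animals apart and drew the libraries of rhino 1 together at 13.3 ± 0.311 against 19.4 ± 3.26 in rhino 2.

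The size of the VGLL4 difference followed the handling of length. The edgeR log2 fold change was 1.09 (SE 0.49, adjusted p = 0.446), against 0.55 with the length offset (adjusted p = 0.439) and 0.68 without rhino 1 replicate 1 (adjusted p = 0.384). By limma-voom it was 2.04 with an adjusted p of 0.0248, the sole call among the 7 genes by any of the 3 tools. Adjusted p over its alternatives ran from 0.0248 to 0.859, with the same direction in each. In rhino 1 replicate 1, 147 of the 193 VGLL4 counts, or 76.2%, lay on the named strand and 46 on the opposite one.

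**Figure D5:**
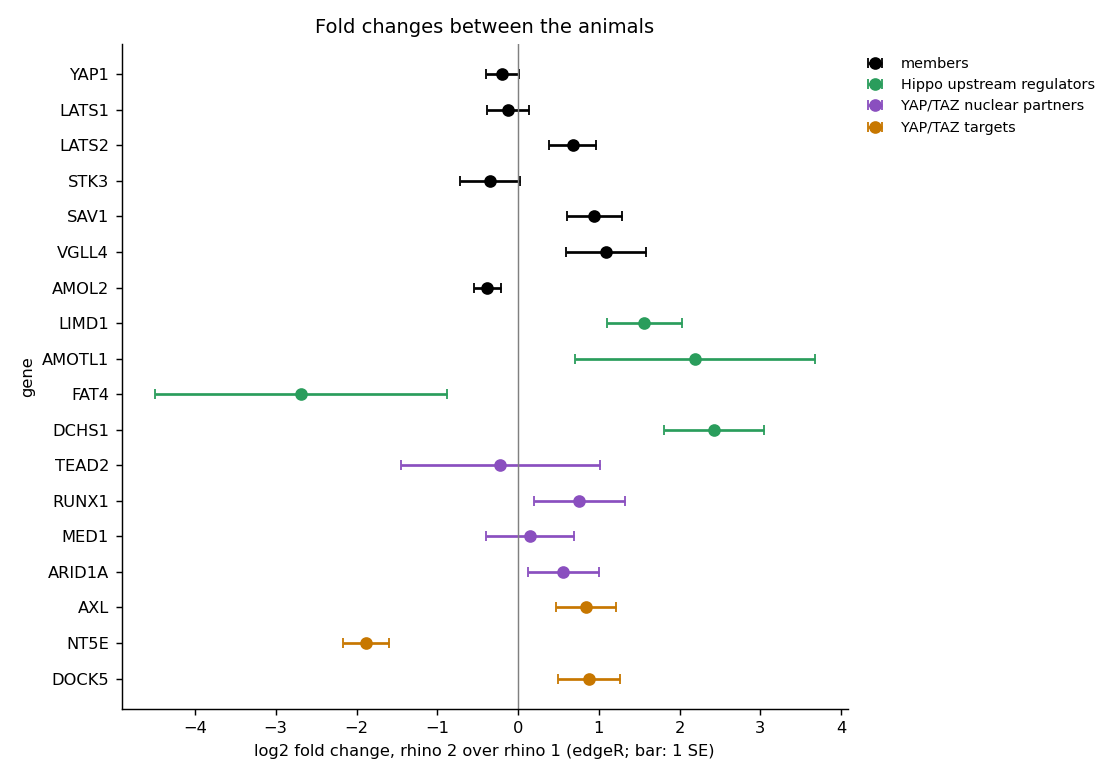
Log2 fold change of rhino 2 over rhino 1 by edgeR (horizontal axis) with bars of 1 SE, for the 7 tested genes in black and for the genes of the 3 pathway lists with the largest fold changes in colour (rows). SAV1, VGLL4 and LATS2 lie at 0.94, 1.09 and 0.67 and AMOL2 at -0.38, and no gene shown has an adjusted p under 0.05.

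Around the core, 57 upstream regulators of the pathway were listed, of which 56 were found and 43 tested. None passed edgeR's threshold, where 0.551% of all loci did, and 6 had an unadjusted p under 0.05, against 12.9% of all loci. DESeq2 passed 4 of 36, where 10.4% of loci passed, and limma-voom passed 2 of 43, where 8.93% passed. Log2 fold changes were above 0 for 26 and below 0 for 17, with a median of 0.17, beside 52.8% of loci above 0 and a median of 0.04 over all 8532. Members of STRIPAK, the phosphatase complex that dephosphorylates the MST kinases, were the 3 most abundant per kilobase. MOB4 had 141 ± 96.6 CPM per kilobase (on the locus with most counts of 3 with that name), the catalytic subunit PPP2CA 99.5 ± 20.5 and the scaffold subunit PPP2R1A 96.2 ± 22.1 (SD, 6 libraries). By CPM, MOB4 had 89.2 ± 33.5 in rhino 1 and 30.3 ± 8.44 in rhino 2, without overlap. That was below SCRIB at 308 and 259 CPM and MAP4K4 at 250 and 298, so its place at the top rests on the length correction.

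The 4 genes of that list with the largest fold changes by the naming rule were FAT4, DCHS1, AMOTL1 and LIMD1, none of them past the threshold. DCHS1, a protocadherin and the ligand of FAT4, had 34.8, 20.8 and 16.6 CPM in rhino 1 and 213, 42.6 and 119 in rhino 2, a log2 fold change of 2.42 (SE 0.62, edgeR adjusted p = 0.144). LIMD1, a LIM protein that holds back LATS kinases, had 22.2, 13.4 and 31.0 CPM in rhino 1 and 59.7, 44.1 and 83.5 in rhino 2, a log2 fold change of 1.56 (SE 0.46, adjusted p = 0.202). Both were without overlap between the animals by CPM. With the length offset the log2 fold changes were 2.37 for DCHS1 and 1.02 for LIMD1 (edgeR adjusted p = 0.103 and 0.451). FAT4, the receptor of DCHS1, had 86.5, 0 and 12.4 CPM in rhino 1 and 9.84, 0 and 4.64 in rhino 2. Its log2 fold change was -2.69 (adjusted p = 0.696), -0.85 with the length offset (edgeR adjusted p = 0.892), and -0.29 without rhino 1 replicate 1. AMOTL1, a paralog of AMOTL2, had 0.301, 37.2 and 6.21 CPM in rhino 1 and 80.7, 9.95 and 72.3 in rhino 2, a log2 fold change of 2.19 (adjusted p = 0.697). These values are of the locus with most counts of 2 with that name. Per kilobase its libraries ran from 0.999 to 12.99, and rhino 1 replicate 1 was not the lowest. With the length offset its log2 fold change was 1.78 (edgeR adjusted p = 0.451). By CPM, the libraries within an animal differed widely for FAT4 and AMOTL1. The genes that DESeq2 passed were CSNK1E, LIMD1, DCHS1 and MOB4, and limma-voom passed AMOTL1 and LIMD1. Neither of these fits used the length offset, and with it edgeR passed 0 of the 43 regulators.

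Of 15 nuclear partners of YAP1 and TAZ, all were found and 7 tested, and none passed any of the 3 tools or an unadjusted p under 0.05. Of all loci, 0.551% passed by edgeR, 10.4% by DESeq2 and 8.93% by limma-voom, and 12.9% had an unadjusted p under 0.05 by edgeR. Fold changes were above 0 for 5 of the 7, with a median of 0.37, beside 52.8% of all loci above 0 and a median of 0.04. WBP2, a WW-domain binding coactivator, was the most abundant at 154 ± 15.3 CPM per kilobase, ahead of TP53BP2 at 28.4 ± 5.33. TEAD2 was the TEAD family member that passed the filter, with 17.3, 41.6 and 20.01 CPM in rhino 1 and 33.5, 0 and 27.8 in rhino 2. TEAD3 reached at most 10.2 CPM, and TEAD4 had no counts in any library. RUNX1, ARID1A and MED1 had log2 fold changes of 0.76, 0.56 and 0.15, with adjusted p of 0.736, 0.759 and 0.985. VGLL1, VGLL2, VGLL3 and TP73 had no counts in any library, and the last 3 have no opposite-strand model, so a 0 in the 5 libraries on that strand says nothing of their RNA.

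Of 24 target genes of YAP1 and TAZ, which include LATS2 and AMOTL2, all were found and 15 were tested. None passed edgeR's threshold, where 0.551% of all loci did, and 3 of the 15 had an unadjusted p under 0.05, against 12.9% of all loci. DESeq2 passed 1 of the 15, where 10.4% of loci passed, and limma-voom passed 2, where 8.93% passed. Fold changes were above 0 for 7 and below 0 for 8, with a median of -0.05, beside 52.8% of all loci above 0 and a median of 0.04. NT5E, the ecto-nucleotidase CD73, lay at the threshold. It had 165 (replicate 1), 113 and 113 CPM in rhino 1 and 31.5, 31.3 and 37.1 in rhino 2, with no overlap and a log2 fold change of -1.88 (SE 0.29, edgeR adjusted p = 0.0501). Its adjusted p ran from 5.9e-06 to 0.246 over the alternatives, all in the same direction, and DESeq2 and limma-voom both passed it. AXL and DOCK5 had log2 fold changes of 0.85 and 0.88 (adjusted p = 0.419 and 0.423).

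The targets most abundant per kilobase were CCN2, CCN1 and GADD45A, at 117 ± 90.4, 89.4 ± 59.1 and 74.5 ± 59.4 CPM per kilobase (SD, 6 libraries), and all of them varied within an animal. CCN2 (CTGF), a matricellular protein, had 26.1, 614 and 180.1 CPM in rhino 1 and 196, 153.5 and 336 in rhino 2. CCN1 (CYR61), of the same family, had 52.4, 381 and 115 CPM in rhino 1 and 67.6, 173 and 231 in rhino 2. Rhino 1 replicate 2 was the highest library for both, and it was the library with the counts of ANKRD1, another target, at 26.8 CPM against 0 elsewhere. The same library was highest for summed smooth muscle markers, at 2632 CPM against 386 to 947 in the other 5, and for summed theca and stroma markers, at 6060 against 482 to 1450. It held 2292 CPM of ACTA2, 2870 CPM of COL1A1 and 2909 CPM of COL1A2, which made up most of these sums. CNN1, RGS5, DCN and PDGFRA were also highest in rhino 1 replicate 2. MYH11, at 112 CPM, was at its lowest of all libraries there, and LHCGR, at 56.5 CPM, at its lowest within rhino 1. The markers of a list thus did not move together. The part of these marker differences in the CCN1, CCN2 and ANKRD1 values was not tested. GADD45A, a gene of the stress response, was at 20.1, 59.5 and 29.7 CPM in rhino 1 and 194, 38.4 and 159.5 in rhino 2, and limma-voom passed it while edgeR did not (adjusted p = 0.237).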

How the data were processed

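Granulosa cell RNA was extracted with the PicoPure kit and made into libraries with the NEBNext Ultra II RNA kit, per the labels' protocols. Trimmomatic, HISAT2 and StringTie are named in the submitters' processing notes, without versions. Neither the genome build nor the strand setting is given in the sources used here. The authors deposited raw read counts, as whole numbers, per transcript for 5 libraries and per gene for rhino 2 replicate 1, as the file headers show.

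Transcript counts were summed to 40656 genes. Unnamed genes were joined to a named gene on the other strand where their exonic overlap reached 50% of the shorter model (bedtools 2.31.1), which left 25906 loci. CPM used library totals. 1 count was worth 0.0753 CPM in the deepest library and 1.49 CPM in the smallest. Levels per kilobase divide the counts on each strand by that strand's exonic length. Libraries of an animal differed by more than sampling noise, so none was counted as a duplicate.

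The contrast of rhino 2 over rhino 1 was fitted with edgeR 4.0.16 under R 4.3.3 (TMM, filterByExpr, glmQLFit, glmQLFTest, two-sided, Benjamini-Hochberg, threshold 0.05). The fit was also run on simulated counts. They held no difference of strand or model length, so the simulation does not cover the effect of these. DESeq2 1.42.0, limma-voom (limma 3.58.1), other scalings, filters and joinings, a replicate block, leaving out each library and model length as an offset were alternatives, the last added after seeing the data. The genes and lists were chosen with earlier results of these data known. Named from each list were genes past the threshold, the 3 highest per kilobase and up to 4 more by fold change. A gene meeting this rule is not reported here. AMH, CYP19A1, INHBA, CNN1, ANKRD1, TEAD3, TEAD4, CSNK1E, VGLL1, VGLL2, VGLL3 and TP73 were named after their values were seen. The limit at 0 is 3 counts, and intervals are 95% Wilson intervals.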

Additional observations from a re-analysis of the deposited data

Results flagged for a closer look

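A signal appeared in a model that the comparisons do not use. On scaffold 5 at 27125952 to 27132448, minus strand, an unnamed model of 3 exons lies over WWTR1, and both of its introns have the same ends as introns of WWTR1. Its exons covered 38.7% of the shorter exonic length, under the 50% needed, so it was not joined. It had 16, 4 and 5 counts in replicates 1, 2 and 3 of rhino 2 (10.5, 5.68 and 4.64 CPM) and 0 in each library of rhino 1. Rhino 1 replicate 1 had 99.5% of the Hippo genes' counts on the named strand, where WWTR1 held 66. Its 0 on this opposite-strand model therefore says little of the RNA, which leaves replicates 2 and 3 of rhino 1 for the contrast. The 16 counts, at 10.5 CPM, are above the 4.46 and 2.07 CPM that 0 allows in replicates 2 and 3 of rhino 1. When strands were joined at any overlap, the difference between the animals in the log2 ratio of YAP1 over WWTR1 moved from -0.51 to -3.45 (exact permutation p = 0.1, the smallest possible). The cause was not tested.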

How the results depend on the processing

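The 7 tested genes had 105 values under alternatives, of which 104 kept their direction and 1 passed the threshold (VGLL4 by limma-voom). With a library left out LATS1 ran from -0.25 to 0.028 (0.028 without rhino 1 replicate 1). No gene of the 7 could be tested on the genes as deposited. The 47 loci called became 631 with DESeq2, 762 with limma-voom, 353 with no filter, 26 at a mean of at least 5 CPM, 132 with loci modelled on both strands, 175 with those and the length offset, 84 with strands joined at any overlap and 0 on the genes as deposited, and 0 to 49 with a library left out. Leaving out rhino 1 replicate 1 gave 49, rhino 1 replicate 2 gave 4, rhino 1 replicate 3 gave 0 and each library of rhino 2 gave 1. The genes called by limma-voom numbered 1 of the 7, 2 upstream regulators and 2 targets, and by DESeq2 they were 4 upstream regulators and 1 target. With no filter they were 1 upstream regulator and 2 targets. DESeq2 size factors, both strands, both strands with the length offset, and any overlap each called 1 target, NT5E. The ratio of YAP1 over WWTR1 ran from -1.55 to 0.95 with a library left out, and reversed to 0.19 without rhino 1 replicate 3. TEAD2 ran from -0.77 to 0.36, above 0 without rhino 1 replicate 2 or rhino 2 replicate 2, and MED1 from -0.36 to 0.49, below 0 without rhino 1 replicate 2 or rhino 2 replicate 1. The cause was not tested.

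With the replicate number as a replicate block, 0 loci passed, 893 had an unadjusted p under 0.05, and 0 of the 7 genes and of each list passed. The deviations of libraries with the same number had correlations of 0.21, 0.12 and 0.01, and nothing in the labels ties the numbers across animals, so the numbers were not taken as pairs. The smallest libraries limit WWTR1 and TEAD1, where 3 counts are 4.46 CPM.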
